A study of Homo sapiens with 6 samples.

Results

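The genes described here are 41 genes of the lysosome, chosen by name with earlier results of these data known. They comprise 9 cysteine cathepsins, 3 other proteases, 6 glycosidases, 3 sulfatases and 7 genes of lipid handling. The rest are 5 membrane proteins, 6 subunits of the V-ATPase proton pump and 2 transcription factors. All 41 were found among 21314 entries of the deposited tables, and all 41 were among the 13645 genes tested. They were measured by RNA sequencing in ARPE-19 cells, an established human line of retinal pigment epithelium (RPE), with 3 libraries from cells that carried a control lentivirus and 3 from cells that carried a PDZK1 overexpression lentivirus. PDZK1 is a scaffold protein whose PDZ domains bind the tails of membrane proteins. In both groups the virus was applied at a multiplicity of infection of 10, and after 48 h of transduction puromycin at 4 µg/ml selected the cells. D-glucose was held at 37.5 mM for 48 h in both groups. The comparison therefore asks what PDZK1 overexpression changes within high glucose, and glucose itself is not compared. The cells are a transduced and selected line, and the promoter of the vector and the content of the control virus are not given in the sources used here. Nothing in the labels says whether the 3 libraries of a group came from separate cultures. The p-values therefore set the difference between the groups against a spread between libraries that may be technical.

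Lysosomes break down proteins, sugars, sulfated glycans and lipids with hydrolases that work at acid pH. The V-ATPase pumps protons into the lumen, cathepsins cut proteins, glycosidases and sulfatases take glycans apart, and lipid-handling proteins release ceramide, fatty acids and cholesterol for export. TFEB and TFE3 are transcription factors that bind an E-box element in the promoters of many lysosomal genes, and the kinase mTOR holds them in the cytoplasm while nutrients are plentiful. In the eye, the RPE uses its lysosomes to digest the photoreceptor outer segments it takes up every day, with cathepsin D as a main protease.

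PDZK1 checked the labels. In CPM (counts relative to the library's TMM-scaled total) the control libraries gave 0.588, 0.583 and 0.834 and the PDZK1 libraries 94.3, 77.5 and 89.2, a log2 fold change of 7.03 ± 0.13 (SE; edgeR adjusted p = 8.16e-09). Total counts ran from 27970618 to 32804567, and control replicate 3 held the fewest and stood apart from the other control libraries on the second principal component. Of the markers of the epithelium, KRT8 and KRT18 lay between 452 and 613 FPKM (fragments scaled by transcript length and library depth) and OTX2 between 20.3 and 26.9 FPKM, whereas CDH1 and EPCAM, also epithelial, lay at 0.0545 FPKM or less, and RPE65 and TTR, which mature RPE expresses, were listed at 0 in all 6 libraries. BEST1 was at 77.5 FPKM in PDZK1 replicate 1 and between 0.940 and 1.41 FPKM in the other 5 libraries. The 6 macrophage markers, from a cell type rich in lysosomes, summed to between 0.242 and 0.847 FPKM per library, with PTPRC, AIF1 and ADGRE1 at 0 throughout.

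The octamer TCACGTGA, the core of the E-box element that TFEB and TFE3 bind, occurs in several promoters of these genes, and the windows below show it. RefSeq promoters (GRCh38.p14, from 250 bases before to 50 bases after a start) were at hand for 26 of the 41 genes. TCACGTGA was in the promoter of 6 of these 26 (23.1%): ATP6V0D1, CTSA, GAA, GALNS, LAMP1 and MCOLN1. It was in 1.18% of the 27305 genes with a RefSeq promoter. The shorter CACGTG, which the octamer contains, was in 11 of the 26 (42.3%) against 8.77% of all genes. Both motifs read the same on either strand. CTSZ was listed and held neither motif, and CTSK and ASAH1 were not among the 26. Each window is written 5′ to 3′ on the strand of its gene, with TCACGTGA, or CACGTG where it stands without the outer letters, in capitals. The windows are chr19:7522556-7522623 (plus strand) for MCOLN1, chr17:80101478-80101580 (plus) for GAA, chr13:113297021-113297238 (plus) for LAMP1 and chr16:88856948-88857148 (minus) for GALNS. MCOLN1 and GAA hold 2 copies of the octamer, and LAMP1 and GALNS hold 1. The last motif ends 7 bases before the RefSeq start in MCOLN1, 24 in GAA, 21 in LAMP1 and 26 in GALNS.
MCOLN1: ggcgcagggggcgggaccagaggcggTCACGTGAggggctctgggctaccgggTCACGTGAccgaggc
GAA: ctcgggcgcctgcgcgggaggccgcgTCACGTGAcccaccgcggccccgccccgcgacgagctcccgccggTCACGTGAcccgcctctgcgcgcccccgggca
LAMP1: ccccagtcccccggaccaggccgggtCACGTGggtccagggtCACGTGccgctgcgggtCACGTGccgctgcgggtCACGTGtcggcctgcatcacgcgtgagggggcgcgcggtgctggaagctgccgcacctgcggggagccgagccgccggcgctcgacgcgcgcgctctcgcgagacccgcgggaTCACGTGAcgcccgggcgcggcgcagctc
GALNS: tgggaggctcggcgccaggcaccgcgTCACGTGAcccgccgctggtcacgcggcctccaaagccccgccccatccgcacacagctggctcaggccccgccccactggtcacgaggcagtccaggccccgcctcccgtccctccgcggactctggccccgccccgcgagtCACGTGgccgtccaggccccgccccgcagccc
In CTSA and ATP6V0D1 the octamer lies inside an exon that GENCODE gives the gene, and those windows are not shown. A match is a run of letters in these windows and no measurement of binding.

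Levels were compared between genes in FPKM, the authors' values per transcript length. Cathepsin D led with 2156 to 2770 FPKM across the 6 libraries. PSAP, the precursor of the saposins that help hydrolases reach their lipids, followed with 1420 to 1548 FPKM. CD63, a tetraspanin of late endosomes and lysosomes, lay between 788 and 867 FPKM, and NPC2, which carries cholesterol in the lumen, between 424 and 466 FPKM. None of these 4 ranges overlapped another. The next genes could not be ordered: CTSA (264 to 358 FPKM), CTSK (266 to 320 FPKM) and TPP1 (238 to 304 FPKM) overlapped. At the low end were the 3 sulfatases (means of 8.02 to 19.0 FPKM), MCOLN1 (15.4 FPKM), CTSO (11.3 FPKM), TFEB (2.91 FPKM) and CTSS, a cathepsin of antigen-presenting cells (1.66 FPKM). The 41 genes together took 1.98%, 1.94% and 2.02% of the counts of the control libraries and 2.15%, 2.12% and 2.16% of those of the PDZK1 libraries, and CTSD and PSAP made up between 44.3% and 47.7% of that share in each library. In bulk samples a change in the number of cells of a type and a change in RNA per cell cannot be told apart.

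**Figure D1:**
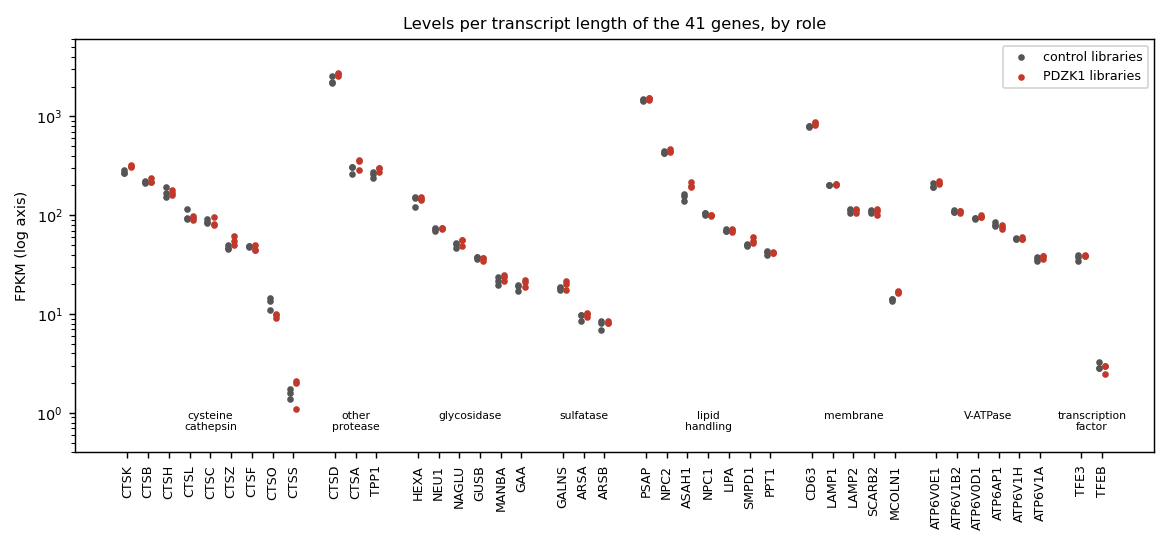
FPKM of the 41 genes in each of the 6 libraries on a log axis, ordered by role and by level; grey points are control libraries and red points PDZK1 libraries. CTSD sits highest at a mean of 2496 FPKM and CTSS lowest at 1.66 FPKM.

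Against the control libraries, 3 of the 41 genes were higher in the PDZK1 libraries at an edgeR adjusted p under 0.05 and none was lower. The 3 were CTSZ, CTSK and MCOLN1, which is 7.32% of the 41. Of all 13645 genes tested, 522 (3.83%) were past this threshold, with 1.41% higher and 2.41% lower. The 41 were chosen with earlier results of these data known, so their shares are not those of an independent list. At an unadjusted p under 0.05, 11 of the 41 genes were higher (26.8%) and 0 were lower, against 8.13% and 9.37% of all genes. In CPM, the 3 PDZK1 libraries lay above all 3 control libraries for 10 genes (24.4%; 11.6% of all genes) and below them for 1, NPC1 (2.44%; 12.3% of all genes). The median log2 fold change was 0.035 over the 41 genes and -0.00025 over all genes tested, and 27 of the 41 values (65.9%) lay above 0 against 49.9% of all genes. With 1 library left out the median over the 41 ran from 0.013 (without control replicate 3) and 0.019 (without PDZK1 replicate 3) to 0.057 (without PDZK1 replicate 2).

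The differences on counts were small. They ran from a log2 fold change of -0.13 in CTSO to 0.27 in ASAH1, which is a fold change of 0.915 to 1.21 on the linear scale. In the authors' FPKM both genes differed by more. CTSO had means of 13.0 FPKM in the control and 9.60 FPKM in the PDZK1 libraries, and ASAH1 152 and 202 FPKM. Counts were deep enough to bound every gene: for all 41 the 95% interval excluded a change of 1.5-fold in either direction, as it did for 78.4% of all genes tested, and for 35 of the 41 it also excluded a change of 1.25-fold. The 6 intervals that reached 1.25-fold were those of CTSO, CTSS, CTSD, ASAH1, MCOLN1 and TFEB. Those of CTSD, ASAH1 and MCOLN1 lay above 0 throughout.

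**Figure D2:**
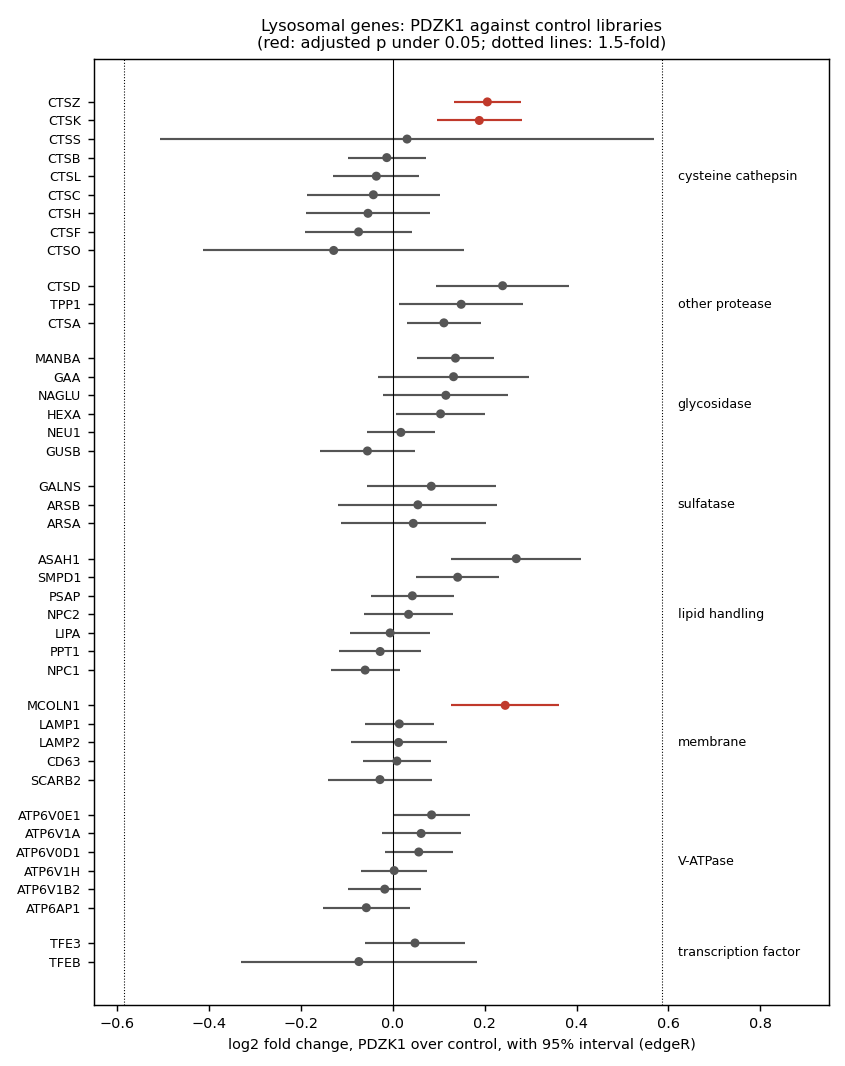
Log2 fold change of PDZK1 over control libraries with its 95% interval from the edgeR model for each of the 41 genes (n = 3 libraries per group), grouped by role; red marks an adjusted p under 0.05 and the dotted lines a 1.5-fold change. The red intervals of CTSZ, CTSK and MCOLN1 lie above 0, and no interval reaches either dotted line.

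CTSZ encodes cathepsin X, a carboxypeptidase of the papain family (ENSG00000101160; chr20:58995185-59007247, minus strand, GRCh38). The control libraries held it at 177, 183 and 179 CPM (179 ± 3.08, SD, n = 3), and PDZK1 libraries at 202, 209.8 and 209 CPM (207 ± 3.92). Each PDZK1 library lay above each control library, and the gap between the groups was wider than the spread within them. The log2 fold change was 0.21 ± 0.03 (SE; edgeR adjusted p = 0.00920), a rise of 15.4%. The call was lost without PDZK1 replicate 3 (adjusted p = 0.0566) and kept without each of the other 5 libraries. It was also lost on log2 FPKM (limma adjusted p = 0.244 to 0.301) and with a replicate block (0.0578).

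CTSK encodes cathepsin K, a collagen- and elastin-degrading protease best known from osteoclasts (ENSG00000143387; chr1:150796208-150808323, minus strand). It was the cysteine cathepsin with the highest mean level, at 295 FPKM. Control libraries had 481, 476 and 519.6 CPM (492 ± 23.9), PDZK1 libraries 563, 554 and 566 CPM (561 ± 6.13). The groups did not overlap, and control replicate 3 was the control library nearest the PDZK1 libraries. The log2 fold change was 0.19 ± 0.04 (SE; edgeR adjusted p = 0.0369). Leaving out any library other than control replicate 3 ended the call (adjusted p = 0.0846 to 0.178); without that library it was 0.00146. On log2 FPKM the call was lost as well (limma adjusted p = 0.0825 to 0.103), as it was with a replicate block (0.124).

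MCOLN1 encodes mucolipin-1, a calcium and iron channel of the lysosomal membrane (ENSG00000090674; chr19:7522626-7534009, plus strand), and the 2 copies of the octamer in its promoter are shown above. The control libraries gave 32.4, 32.0 and 30.9 CPM (31.8 ± 0.777) and the PDZK1 libraries 37.4, 38.6 and 37.0 CPM (37.7 ± 0.865). Both groups were tight and did not overlap. The log2 fold change was 0.24 ± 0.05 (SE; edgeR adjusted p = 0.0331), a rise of 18.5%. The call held only without control replicate 3 (0.0490) among the 6 fits that leave out a library, and the other 5 gave adjusted p = 0.0889 to 0.127. Log2 FPKM (limma adjusted p = 0.0557 to 0.0648) and a replicate block (0.129) also ended it. On the same strand MCOLN1 overlaps PNPLA6 and AC008878.2 in the annotation, both listed as protein-coding, so reads of the shared stretches could be split among these genes. No value is given here for AC008878.2. PNPLA6 had a log2 fold change of -0.02 (edgeR adjusted p = 0.904).

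The other 7 cysteine cathepsins did not pass the threshold, and 6 of them had values under 0. CTSB, a broadly expressed endopeptidase, had 803, 798 and 844 CPM in the control and 796, 819 and 808 CPM in the PDZK1 libraries, and the groups overlapped fully (log2 fold change -0.01, 95% interval -0.10 to 0.07). CTSL, CTSC, CTSH and CTSF had log2 fold changes of -0.04, -0.04, -0.05 and -0.07. CTSO showed the lowest value on counts, -0.13 (edgeR adjusted p = 0.663), with overlapping groups in CPM. In FPKM its groups did not overlap, at 13.6, 14.4 and 11.1 for control and 9.05, 10.0 and 9.71 for PDZK1. CTSS was too low to be bounded closely, with an interval from -0.50 to 0.57.

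Of the other proteases, CTSD, an aspartic protease (ENSG00000117984; chr11:1752752-1764573, minus strand), had 4517, 4460.3 and 5292 CPM in the control libraries (4757 ± 465) against 5578, 5725 and 5540.2 CPM with PDZK1 (5614 ± 97.9). The PDZK1 libraries lay above all control libraries, but control replicate 3 lay closer to them than to the other control libraries. The log2 fold change of 0.24 ± 0.06 (SE) did not pass the threshold (edgeR adjusted p = 0.0804). Without control replicate 3 it was 0.32 with an adjusted p of 0.000191, and without any other library it stayed above the threshold (0.2003 to 0.298). CTSD overlaps AC068580.4 on the same strand, a gene annotated as protein-coding, so reads of the shared stretch could be split between them. AC068580.4 was higher in the PDZK1 libraries (102 against 141 CPM, log2 fold change 0.47, edgeR adjusted p = 0.0160).

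CTSA, the protective protein that holds β-galactosidase and neuraminidase in a stable complex, had 699, 682 and 676 CPM against 746, 721 and 756 CPM, with no overlap and a log2 fold change of 0.11 ± 0.04 (SE; edgeR adjusted p = 0.138). TPP1, a tripeptidyl peptidase whose loss causes a childhood neuronal ceroid lipofuscinosis, overlapped between the groups (0.15, adjusted p = 0.233). All 3 of these proteases were at an unadjusted p under 0.05 and none was past the adjusted threshold. Summed, they came to 6236, 6120.2 and 6847 CPM in control and 7407, 7450.1 and 7399 CPM in PDZK1 libraries, most of it CTSD.

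No glycosidase or sulfatase passed the threshold. Of the 6 glycosidases 5 had values above 0. MANBA, β-mannosidase, had the smallest adjusted p of the group, at 85.1, 83.1 and 82.1 CPM against 90.9, 91.9 and 92.4 CPM, without overlap (log2 fold change 0.14, edgeR adjusted p = 0.0846). HEXA, the α subunit of β-hexosaminidase, had the highest mean level of the group, and its libraries gave 326, 329 and 312 CPM against 340, 333 and 366 CPM (0.10, adjusted p = 0.249). HEXA shares a stretch on the same strand with AC009690.1, which had a log2 fold change of 1.09 (adjusted p = 0.537). NEU1, the sialidase of the lysosome, barely differed, with 266, 262 and 255 CPM against 265, 261 and 266 CPM (0.02, 95% interval -0.06 to 0.09). GAA, acid α-glucosidase, and NAGLU lay at 0.13 and 0.12, and GUSB, β-glucuronidase, at -0.05. GUSB has 11 numbered pseudogenes in the annotation, CTSL has 6 and ATP6V0E1 has 4, so reads of these genes may be shared with them.

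The 3 sulfatases were the group with the lowest levels. GALNS had 43.9, 45.9 and 41.4 CPM in the control and 46.9, 43.4 and 48.8 CPM in the PDZK1 libraries, and ARSA had 43.5, 39.9 and 36.3 CPM against 42.4, 39.5 and 41.6 CPM. Groups overlapped in both genes and in ARSB, and the 3 log2 fold changes were 0.08, 0.04 and 0.05 with adjusted p of 0.549 or more.

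Among the genes of lipid handling ASAH1, acid ceramidase, had the largest log2 fold change of all 41, 0.27 ± 0.06 (SE), just outside the threshold (edgeR adjusted p = 0.0524). It was at 461, 439.8 and 393 CPM in the control and 531, 489 and 539 in the PDZK1 libraries, with no overlap. On log2 FPKM the difference was 0.41 and passed the threshold (limma adjusted p = 0.0433), and without a filter on low FPKM it did not (0.0742). SMPD1, acid sphingomyelinase, which makes the ceramide that ASAH1 splits, had 124, 127 and 123 CPM against 141.8, 130.4 and 140.4 CPM (0.14, edgeR adjusted p = 0.0928). ASAH1 was past the threshold without control replicate 1, its highest control library (0.32, adjusted p = 0.0449), and without control replicate 3, its lowest (0.21, adjusted p = 0.0231).

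PSAP had 4395, 4257 and 4463 CPM in the control and 4580.4, 4395 and 4536 CPM in the PDZK1 libraries, a log2 fold change of 0.04 with overlapping groups (edgeR adjusted p = 0.654). NPC2 had 407, 419 and 434 CPM against 424, 452 and 414 CPM (0.03). NPC1, the cholesterol exporter of the lysosomal membrane, was the gene whose PDZK1 libraries all lay below the control libraries, at 465, 469 and 463 CPM against 491, 490.0 and 475 CPM. Its log2 fold change was -0.06 with an interval from -0.13 to 0.02 (adjusted p = 0.404). PPT1, palmitoyl-protein thioesterase, and LIPA, the acid lipase of cholesteryl esters, lay at -0.03 and -0.01.

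Of the membrane proteins, MCOLN1 was the only one past the threshold in this fit. LAMP1, the abundant glycoprotein of the lysosomal membrane, had 594, 594 and 599.7 CPM against 605, 591 and 609 CPM with PDZK1. Its log2 fold change was 0.01 (95% interval -0.06 to 0.09). CD63 gave 869, 859 and 863 CPM against 868, 869 and 871 CPM, a log2 fold change of 0.01 (interval -0.06 to 0.08). In FPKM the same gene ran from 788 to 798 in the control and from 814 to 867 in the PDZK1 libraries, so the groups overlapped in CPM and did not overlap in FPKM. PDZK1 replicates 1 and 3 had 868 and 871 CPM but 867 and 814 FPKM, so FPKM and CPM were not in a fixed proportion across libraries. The same held for CTSO and ASAH1, and the reason was not tested. LAMP2, which serves chaperone-mediated autophagy, and SCARB2, the sorting receptor of glucocerebrosidase, lay at 0.01 and -0.03. The intervals of these 4 genes excluded a change of 1.25-fold.

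**Figure D3:**
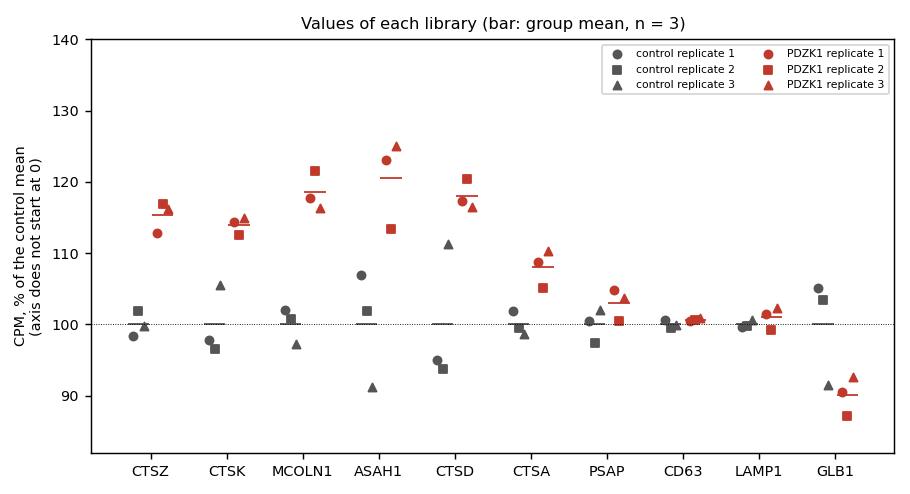
CPM of each library as a percentage of the control mean of its gene, with bars at group means (n = 3 libraries); grey is control and red PDZK1, and the vertical axis does not start at 0. For CTSZ, CTSK and MCOLN1 the red points lie above all grey points, for CTSD and ASAH1 control replicate 3 (grey triangle) lies at opposite ends of the control points, and for CD63 and LAMP1 the groups overlap.

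None of the 6 V-ATPase genes passed the threshold, and their log2 fold changes ran from -0.06 (ATP6AP1, an accessory subunit) to 0.08 (ATP6V0E1, a small subunit of the membrane sector). ATP6V0E1 had 284, 270.4 and 272 CPM in the control and 283, 294 and 300.1 CPM in the PDZK1 libraries, overlapping by control replicate 1 (edgeR adjusted p = 0.279). ATP6V1B2, a subunit of the ATP-splitting head, had 343, 328 and 324 CPM against 332, 323 and 329 CPM (-0.02, interval -0.10 to 0.06). ATP6V1A, the catalytic subunit, ATP6V0D1 and ATP6V1H lay at 0.06, 0.06 and 0.0035.

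The V-ATPase has paralogous subunits that tissues use differently, and in these cells 1 paralogue of each set led. ATP6V1B2 stood at 109 FPKM and ATP6V1B1, the isoform of kidney and inner ear, at 0.0790 FPKM. ATP6V0D1 stood at 95.4 FPKM and ATP6V0D2, the isoform of osteoclasts and kidney, at 0.351 FPKM. ATP6V1E1 (208 FPKM) exceeded ATP6V1E2 (1.16 FPKM), and ATP6V1G1 (91.1 FPKM) exceeded ATP6V1G2 (1.74 FPKM) and ATP6V1G3 (0.0683 FPKM). For the a subunit, which sets where the pump sits, ATP6V0A1 was at 32.2 FPKM, TCIRG1 at 7.61 FPKM, ATP6V0A2 at 6.55 FPKM and ATP6V0A4 at 2.08 FPKM. ATP6V0E1 (206 FPKM) exceeded ATP6V0E2 (32.4 FPKM) by less. Between the groups, the 20 V-ATPase genes outside the 41 that were tested had log2 fold changes from -0.31 to 0.90, and none passed the threshold in the fit on all libraries. The highest was ATP6V0D2, at a mean of 0.351 FPKM (95% interval -0.20 to 1.99). ATP6V1C2 had 23.8, 23.1 and 25.7 CPM in the control and 31.6, 21.2 and 33.2 CPM in the PDZK1 libraries (0.24, edgeR adjusted p = 0.536), and without PDZK1 replicate 2, its lowest library, it was past the threshold. In each of these sets the lowest library of the leading paralogue lay above the highest library of the others.

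**Figure D4:**
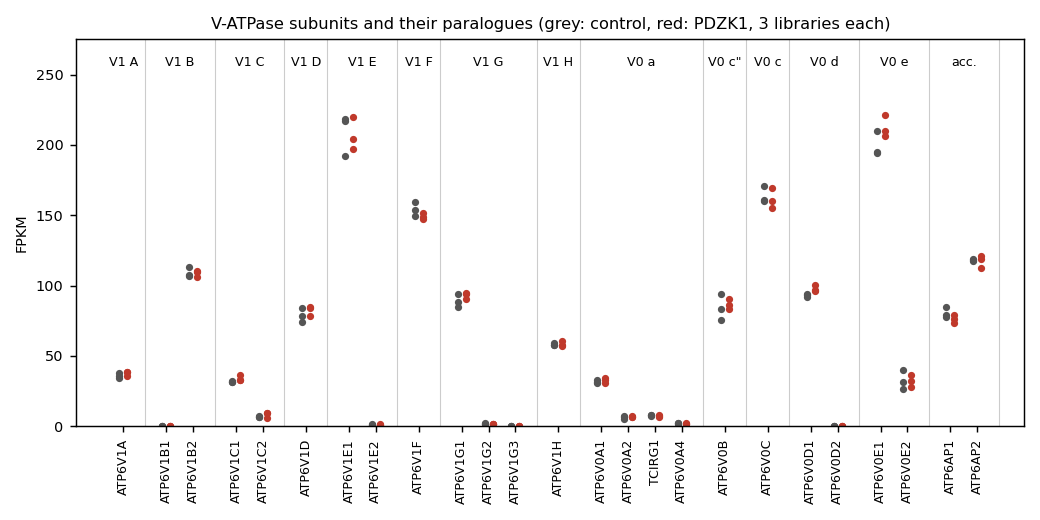
FPKM of V-ATPase subunits and their paralogues in each of the 6 libraries (grey control, red PDZK1), grouped by subunit of the V1 head and the V0 membrane sector, with accessory subunits at the right. ATP6V1B2 at a mean of 109 FPKM stands beside ATP6V1B1 at 0.0790 FPKM, and no subunit passed the threshold between the grey and the red libraries.

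The transcription factors did not pass the threshold. TFEB had 8.98, 8.16 and 7.72 CPM in the control and 8.27, 7.20 and 8.17 CPM in the PDZK1 libraries, a log2 fold change of -0.07 with an interval from -0.33 to 0.18 (edgeR adjusted p = 0.804). TFE3 had 141, 137 and 123 CPM against 139, 137 and 139 CPM (0.05, adjusted p = 0.679). Of the family, TFE3 had the highest level at 38.1 FPKM, followed by MITF at 8.01 FPKM, TFEB at 2.91 FPKM and TFEC at 0.416 FPKM. These are transcript levels, and the place of these factors in the cell, on which their activity depends, was not measured here. The 6 genes with the octamer in their promoter had log2 fold changes from 0.01 (LAMP1) to 0.24 (MCOLN1), all above 0, with a median of 0.098 and 1 of 6 past the threshold. The 20 other genes whose promoter was listed had a median of -0.02, with 9 above 0 and 1 (CTSZ) past the threshold. Of all tested genes, the 243 with the octamer had a median of 0.027, with 63.0% above 0. The 10765 others with a RefSeq promoter had a median of -0.00051, with 49.8% above 0. Past the threshold in either direction were 2.06% of the 243 and 3.81% of the 10765. All 5 calls among the 243 were higher (2.06%), and 1.34% of the 10765 were called higher. The difference between these sets was not tested. The 15 lysosomal genes without a listed promoter had a median of 0.045, and CTSK was past the threshold.

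A second list of 99 lysosomal genes, of which 94 were tested, covers enzymes, membrane proteins, sorting factors, V-ATPase subunits and regulators outside the 41. None passed the threshold with edgeR, against 3.83% of all genes. DESeq2 called 3 of them, while it called 5.81% of all genes. At an unadjusted p under 0.05, 6 were higher (6.38%) and 8 were lower (8.51%), beside 8.13% and 9.37% of all genes. In CPM, the PDZK1 libraries lay above all control libraries for 13 of the 94 and below them for 6, beside 11.6% and 12.3% of all genes. Their median was 0.02, with 53 above 0 and 41 below. Those at an unadjusted p under 0.05 included TMEM192 and CLCN7 of the lysosomal membrane on the higher side (0.20 and 0.11), and GNPTAB, which makes the mannose 6-phosphate sorting tag, and CD68 on the lower side (-0.14 and -0.22). The 5 genes that were not tested were ATP6V1B1, ATP6V1G3, CTSW, LAPTM5 and NAPSA, each at a mean of 0.131 FPKM or less.

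GLB1 encodes acid β-galactosidase, the enzyme behind the senescence-associated β-galactosidase stain that the study used. It was at 168, 166 and 146 CPM in the control group and at 145, 139 and 148 CPM with PDZK1. The groups overlapped through control replicate 3, and the log2 fold change of -0.15 ± 0.05 (SE) did not pass the threshold (edgeR adjusted p = 0.170). Without control replicate 3 it was -0.21 with an adjusted p of 0.00616.

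CTSD, TPP1 and SMPD1 lie on the short arm of chromosome 11, where neighbouring genes were also higher. The log2 fold changes of the tested genes within 5 Mb of the start had a median of 0.14 around CTSD (83 genes, 69 of them above 0, 12 higher and 2 lower past the threshold), 0.14 around TPP1 (68 genes, 57 above 0, 10 higher and 1 lower past it) and 0.14 around SMPD1 (72 genes, 59 above 0, 10 higher and 1 lower past it). These windows share genes, and CTSD, TPP1 and SMPD1 count among one another's neighbours. The median around CTSD is the value of SMPD1 itself. AC068580.4, which overlaps CTSD on the same strand and may share its reads, is among the neighbours past the threshold in each of these windows. Over all genes tested, 1.41% were higher and 2.41% lower past the threshold. The genes' own values were 0.24, 0.15 and 0.14, so those of TPP1 and SMPD1 lay within 0.014 and 0.0061 of the median of their neighbours, while CTSD lay 0.098 above, with 20 of its 83 neighbours higher still. For the other 38 genes the neighbours' medians ran from -0.06 to 0.04. They were -0.0026 around CTSZ (65 genes), -0.00051 around CTSK (147) and -0.0077 around MCOLN1 (206), and the 3 genes lay 0.21, 0.19 and 0.25 above them. The median over the 38 genes was 0.025, with 24 above 0, against 49.9% of all genes tested. Of the 38, 8 were at an unadjusted p under 0.05, all higher, against 8.13% of all genes higher and 9.37% lower. The part of the stretch on chromosome 11 in the values of CTSD, TPP1 and SMPD1 was not tested.

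**Figure D5:**
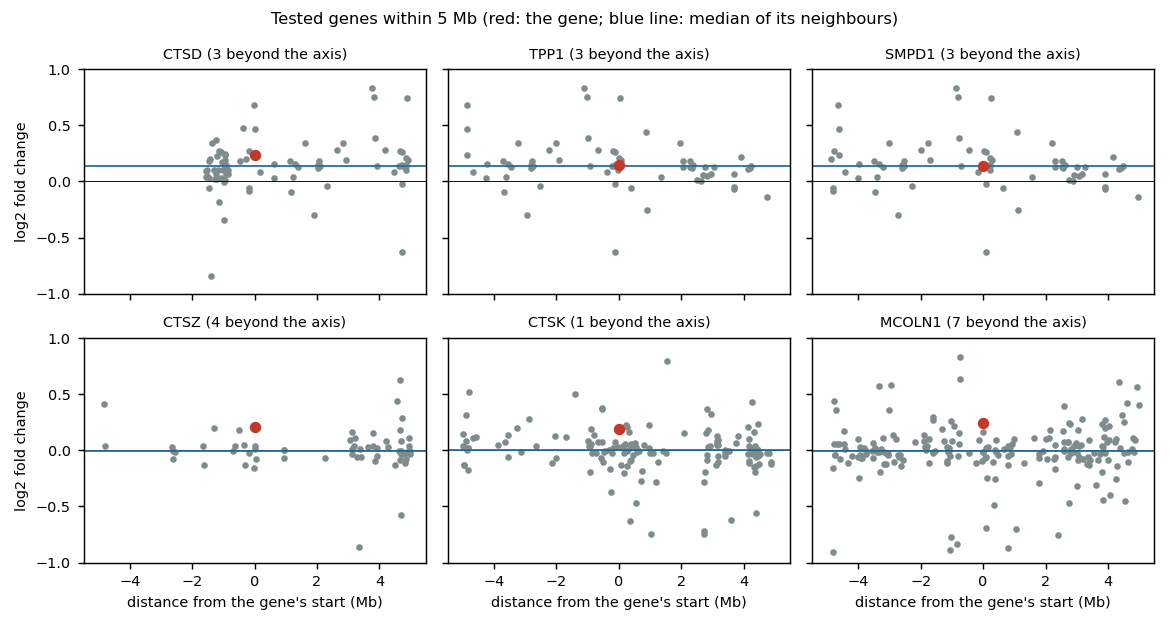
Log2 fold change of each tested gene within 5 Mb of the start of CTSD, TPP1, SMPD1, CTSZ, CTSK and MCOLN1 against its distance in Mb (grey), with the gene itself in red and the median of its neighbours as a blue line; values beyond 1 on either side are counted above each panel. The blue line lies at 0.14 in the 3 upper panels and close to 0 in the 3 lower ones.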

How the data were processed

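Reads came from libraries of total RNA made with a VAHTS Universal V6 kit. The submitters' processing notes name fastp 0.20.1, HISAT2 2.2.1 and GRCh38; the counting program, annotation and strandedness are not given in the sources used here. The authors deposited estimated counts per gene as whole numbers, with no scaling for depth, and FPKM, which scale by transcript length and mapped fragments. Of 21314 entries, 853 assembled loci (0.519% to 0.536% of counts) were left out. A further 3 columns in each file match none of the samples and were not used.

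Genes passing filterByExpr were tested with edgeR 4.0.16 in R 4.3.3 (TMM, robust quasi-likelihood, two-sided, no covariates, all 6 libraries), with Benjamini-Hochberg adjustment over 13645 genes and a threshold of 0.05. Intervals are 95% intervals of the model for the log2 fold change, and rest on the spread between libraries as the model estimates it. The steps were tested on simulated data. Alternatives were DESeq2 1.42.0, limma 3.58.1 (voom, and limma-trend on log2 FPKM, pseudocount 1 or 0.1, with and without a minimum mean of 0.5 FPKM), other scalings and filters, a replicate block and each library left out. Coordinates of genes are those of GENCODE on GRCh38; promoters are RefSeq's on GRCh38.p14.

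Values of every library are given for genes past the threshold, the 2 highest in mean FPKM of each role, TFEB, TFE3, MCOLN1, LAMP1, CTSD and GLB1; other genes given so were picked once their values were known. The 41 genes and the lists were chosen with earlier results of these data known.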

Additional observations from a re-analysis of the deposited data

How the results depend on the processing

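Libraries held 27970618 to 32804567 counts, and the 95% intervals of all 41 genes excluded a 1.5-fold change. PDZK1 stayed past the threshold in all 16 alternatives (log2 fold change 4.92 to 7.21). The count of lysosomal genes past the threshold, 3 with edgeR, was 5 with DESeq2 (ASAH1 and CTSD added), 4 with library totals alone, 1 with log2(FPKM + 1) or log2(FPKM + 0.1) (ASAH1), and 0 with log2(FPKM + 1) without a filter, with a replicate block, or with a fold change over 1.5 also required. Leaving out each library in turn gave 0 to 5 (2, 1 and 5 without control replicates 1, 2 and 3, then 1, 1 and 0 without the PDZK1 replicates in that order). All genes called in any of these were higher. Calls over all genes moved too, from 522 to 163 with the replicate block and to 793 with DESeq2, 191 with log2(FPKM + 1), 187 with log2(FPKM + 0.1), 184 without its filter, 268, 186, 875, 181, 293 and 206 in the same order of libraries left out. The labels do not say whether the replicate numbers pair the samples. Libraries with the same number had residual correlations of -0.033, -0.11 and -0.17, and no library correlated best with its own number. With 3 libraries per group these values cannot settle whether the samples are paired. With the block the adjusted p was 0.0578 for CTSZ, 0.124 for CTSK and 0.129 for MCOLN1.

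CTSZ was past the threshold in 11 of 16 alternatives (adjusted p from 0.000212 to 0.301), CTSK in 7 (0.00146 to 0.178), MCOLN1 in 7 (0.0235 to 0.129), ASAH1 in 6 (0.00109 to 0.1995) and CTSD in 2 (0.000191 to 0.298), each above 0 in all 16. The second list had 3 genes past the threshold with DESeq2 (CD68 and GNPTAB lower, TMEM192 higher) and 0 to 3 with a library left out. Signs turned, far from the threshold, for CTSB (0.0052 with library totals, 0.046 with log2(FPKM + 1), with and without a filter, and 0.046 with log2(FPKM + 0.1)) and ATP6V1B2 (0.00079 with library totals), and with a library left out for CTSB (-0.028 to 0.013), ARSA (-0.018 to 0.11), NPC2 (-0.00081 to 0.062), ATP6V1B2 (-0.034 to 0.0068) and TFE3 (-0.0074 to 0.090). The median of the neighbours was 0.128 for CTSD within 10 Mb, 0.149 for SMPD1 within 1 Mb (the value of TPP1 itself), 0.0034 and 0.016 for CTSK within 1 and 10 Mb, and -0.014 for MCOLN1 within 1 Mb. The cause of these changes was not tested.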
